A study of Homo sapiens with 6 samples.

Results

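Isoforms at loci without an assigned gene name were examined in the polyadenylated RNA of K562 cells and of the extracellular vesicles (EVs) that these cells release. K562 is an erythroid line derived from a chronic myeloid leukaemia, and every library came from the same untreated, genetically unmodified (WT) cells. The study compared 3 libraries of whole cells (WC) with 3 libraries of EVs purified from the conditioned medium of the same 3 replicates by size exclusion chromatography. RNA was treated with DNase I on the column, copied into cDNA from poly(A) tails, amplified by PCR and read on a nanopore device. The authors assembled isoform models with FLAIR, a tool that groups aligned long reads into transcript models and gives a model the name of an annotated gene where it can, or otherwise a name made of a chromosome and a rounded position. The isoforms described here are those with such a position in place of a gene name. There were 3729 of them among the 13208 isoforms of the deposited isoform table (28.2%), at 3633 loci. The other 9479 isoforms carried an annotated gene, 9163 of them spliced and 316 with a single exon. A single line cultured in 1 laboratory is a narrow model, and nothing here speaks of other cells.

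An isoform model with a single exon carries no splice site, and splice sites are what fixes the strand of a cDNA read in an alignment. Poly(A)-primed libraries read from the 3′ end of polyadenylated RNA, where most messenger RNAs hold the signal AATAAA or ATTAAA a short way before the cleavage site. An adenine-rich stretch inside an RNA can also be primed, and small RNAs made by RNA polymerase III may end in or contain adenine runs. Among such small RNAs are the snaR RNAs, primate RNAs named for their binding to the double-stranded RNA-binding protein NF90, and BC200, the product of BCYRN1, an Alu-derived RNA with an internal adenine-rich region that is known from neurons and tumours. Processed pseudogenes are copies of messenger RNAs inserted into the genome, and nuclear copies of mitochondrial genes are stretches of mitochondrial DNA inserted into chromosomes, so reads of either can be hard to place.

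The sequences of the 5 snaR isoforms are shown because they held 22.03% of the summed level of all 3729 isoforms and because they differ in how far they read into an adenine run. They are taken from the GRCh38 (hg38) genome, 5′ to 3′, read in the orientation of SNAR-A2, and capitals mark bases that are substituted relative to the SNAR-A2 isoform.
SNAR-A2 (chr19:47934183-47934273, + strand): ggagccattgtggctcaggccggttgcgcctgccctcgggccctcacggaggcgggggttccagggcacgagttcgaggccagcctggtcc
SNAR-C3 (chr19:47950298-47950391, + strand): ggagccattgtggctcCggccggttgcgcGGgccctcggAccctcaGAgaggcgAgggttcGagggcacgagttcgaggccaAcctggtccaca
SNAR-E (chr19:46830587-46830681, - strand): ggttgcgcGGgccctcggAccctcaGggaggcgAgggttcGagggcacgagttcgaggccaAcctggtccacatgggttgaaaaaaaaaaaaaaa
SNAR-G1 (chr19:49037042-49037140, + strand): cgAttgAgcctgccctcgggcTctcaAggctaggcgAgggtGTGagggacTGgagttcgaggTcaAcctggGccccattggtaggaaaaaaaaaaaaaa
SNAR-D (chr19:50140209-50140297, - strand): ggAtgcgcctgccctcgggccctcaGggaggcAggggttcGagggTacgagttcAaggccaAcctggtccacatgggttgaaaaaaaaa

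The ends of intronic isoforms are shown because a recurring arrangement of bases stood just outside them. They belong to 3 of the longest isoforms that lie in the introns of a gene and have both features described further on. The 30 genomic bases before the end that is 5′ in the direction of the gene and the 30 after the end that is 3′ are printed on the gene's strand, with T in capitals before and CCCAGC in capitals after.
FNIP1, before (chr5:131767430-131767459): TTcTTTTTTTTTTTTTTTTTTTTTTTTTTT
FNIP1, after (chr5:131759035-131759064): agataaggctagccagttatCCCAGCacct
NIFK-AS1, before (chr2:121661266-121661295): cacTTTTTTTTTTTTTTTTTTgaaaTggag
NIFK-AS1, after (chr2:121668722-121668751): taaagaagaccaaacaaaatCCCAGCcagc
RREB1, before (chr6:7192120-7192149): TTTTTTTTTTTTTTTTTTTTTTTTgcaTcT
RREB1, after (chr6:7199422-7199451): ctaaagtgagaaaatagactCCCAGCttct

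Gene counts, used below for annotated genes at the same places, totalled between 2480560 and 3178211 for WC and between 560157 and 881338 for EV libraries, so EV values rest on fewer reads. All 13 K562 markers examined, such as the globin gene HBG1 and the erythroid factor GATA1, had counts, and 12 of them had counts in all 6 libraries. Of 7 genes of other cell types, MS4A1 and ALB were at 0 in all libraries, while EPCAM, an epithelial adhesion gene, reached 329 counts in a library. The summed CPM (scaled read counts) of the K562 markers ranged from 532 to 597 in WC and from 765 to 883 in EV libraries, and that of the other 7 genes from 66.0 to 102 and from 26.1 to 54.8. The deposited isoform table holds no values per library, so the level of an isoform is the authors' mean normalized count over the libraries, without an error or a number of replicates, and no WC to EV difference was tested for an isoform itself.

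Nearly all isoforms at position-named loci were unspliced. A single exon made up 3679 of the 3729 (98.7%) and 50 had 2 exons, while 3.33% of the isoforms with a gene had a single exon and their median was 7 exons. The plus strand carried 1881 and the minus strand 1848. Most loci, 3550 of 3633, held 1 isoform, 75 held 2 and 8 held 3 or more, with at most 6 at a locus. The full set of models deposited by the authors was far richer in such loci. Of its 195235 models, 134236 (68.8%) lay at loci named by position, 99.5% of those with a single exon, and 2.78% of them entered the isoform table, against 15.5% of the models with a gene.

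Isoforms at position-named loci were longer than those with a gene. Their median length was 2222 nt (95% confidence interval of the median 2147 to 2297, which covers counting error only), with 5% of them under 287 nt and 5% over 6530 nt. The median was 1465 nt for single-exon and 1548 nt for spliced isoforms with a gene. The 50 isoforms of 2 exons were shorter, with a median of 679.5 nt. Above 5000 nt lay 511 isoforms (13.7%, against 5.29% of those with a gene), and at 150 nt or less lay 47 (1.26%, against 0.0527%).

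**Figure D1:**
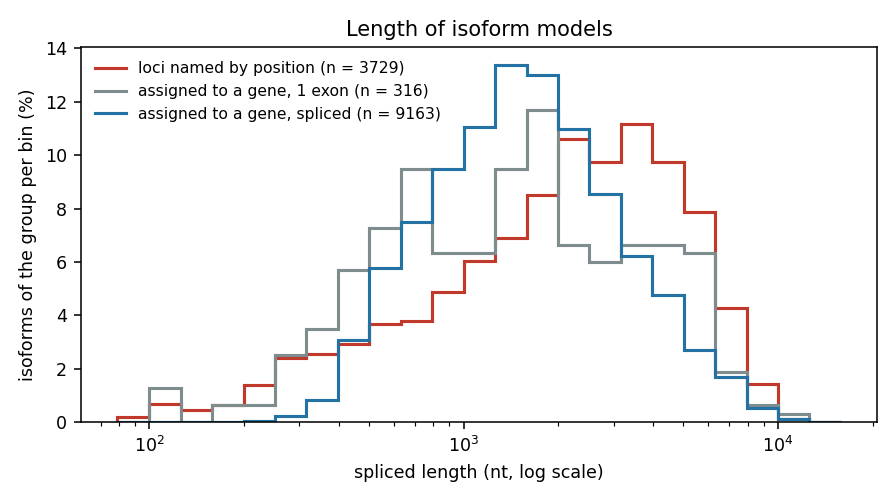
Spliced length in nt on a log axis against the share of each group's isoforms per bin, for 3729 isoforms at loci named by position, 316 single-exon isoforms and 9163 spliced isoforms with a gene. The curve of the position-named loci lies to the right of the others, with a median of 2222 nt, and has a small tail below 150 nt.

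Levels were mostly low, and a few short isoforms held much of the total. The median of the authors' mean normalized count was 5.21, against 9.85 for isoforms with a gene. Altogether the 3729 isoforms held 11.8% of the summed level of the table, 56 had a level of at least 100 and 6 of at least 1000. The 10 highest held 40.1% of their summed level, and the highest alone held 19.2% and ranked first of all isoforms in the table. The 47 isoforms of up to 150 nt held 27.2% of the summed level with a median level of 40.8, and 63.8% of them had a mapping quality under the maximum of 60. Over all lengths 8.39% had a mapping quality under 60, and among those over 5000 nt 2.54%. The share was 10.1% among all isoforms with a gene and 56.3% among single-exon isoforms with a gene. A low mapping quality means that the aligned read could be placed elsewhere nearly as well, so the position of many of the shortest isoforms is uncertain.

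FLAIR's prediction of protein coding gave a start codon to few of them. The class without a start codon held 3586 isoforms (96.2%), and 136 (3.65%) were predicted productive, meaning that an annotated start and a normal stop lie in the model. Among isoforms with a gene 72.2% were productive. Among single-exon isoforms with a gene only 9.81% were, and 90.2% lacked a start codon. At position-named loci, 26 of the 50 isoforms of 2 exons (52%) were productive, and 110 of the single-exon isoforms (2.99%). All 136 lay over exons of an annotated gene on their own strand.

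The isoforms did not lie far from genes, although no gene was assigned to them. With GENCODE v44, 3439 of 3729 (92.2%) fell within the span of an annotated gene on either strand, so few lay outside annotated genes. A span includes introns and the opposite strand, so lying in one does not make an isoform an annotated transcript. Exonic bases of a gene on the same strand were covered by 1077 (28.9%, 95% exact Clopper-Pearson interval 27.4 to 30.4), and exonic bases on the opposite strand alone by 844 (22.6%). Introns of a gene on the same strand held 696 (18.7%), introns of a gene on the opposite strand 731 (19.6%) and introns of genes on both strands 91 (2.44%). No gene of either strand lay at 290 (7.78%). The isoforms over exons on their own strand were only in part exonic: a median of 43.4% of their bases was exonic, 360 lay wholly inside exons and 576 had fewer exonic than other bases. Of these 1077, 764 (70.9%) touched a protein-coding gene, 251 an lncRNA gene and 45 a processed pseudogene, and of the 844 on the opposite strand 684 (81.0%) touched a protein-coding gene and 42 a processed pseudogene.

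The 290 isoforms outside GENCODE genes held 31.3% of the summed level, but SNAR-A2 alone made up 19.2%, and without it they held less than either exonic class. Their median level was 5.78, below the 6.45 of isoforms over exons on the same strand. A gene of RefSeq was overlapped by 79 of them. Their median distance to the nearest gene was 6938.5 bp, 131 lay within 5 kb and 14 beyond 100 kb. Their median length of 1546 nt was the lowest of the 6 classes, and 27.6% had a mapping quality under 60. In contrast, the 3 intronic classes had median levels of 4.19 to 4.43 and together covered 40.7% of the isoforms.

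The chromosomes held uneven shares of the isoforms. Chromosome 1 held the most, 400 (10.7%, against 10.9% of the isoforms with a gene). Chromosome 7 held 300, or 8.05% against 4.68%, a ratio of 1.72, and the ratio was 1.61 on chromosome 22, 1.55 on chromosome 21 and 1.36 on chromosome 6. Chromosome X had the lowest ratio, 0.688, with 99 isoforms. Chromosome Y held neither kind. Chromosome 19 had the most per length among the nuclear chromosomes, 3.07 per Mb, and 24.1% of the summed level, most of it from the snaR isoforms. Of 1276 windows of 1 Mb with such an isoform, 8 held 20 or more against a median of 2, among them the histone gene cluster of chromosome 6 (24 isoforms at 26 to 27 Mb, shown as chr6:26000001-27000000) and the window of the nuclear lncRNAs MALAT1 and NEAT1 on chromosome 11 (22 isoforms).

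Runs of genomic adenine stood beside many of the isoforms, at either end. At least 12 A among the 20 genomic bases after the 3′ end were found for 978 of 3729 isoforms (26.2%, 24.8 to 27.7), while 2.94% of spliced and 3.80% of single-exon isoforms with a gene had such a flank. The same count at the other end, read on the opposite strand, gave 27.0%, and 1863 isoforms (49.96%) had an adenine-rich flank at either end. By length the share at the 3′ end was 23.4% (11 of 47) up to 150 nt, 18.1% at more than 150 and up to 300 nt and then higher in each longer class, up to 35.8% over 5000 nt. It was 26.9% among isoforms of mapping quality 60. Only 4 of the 50 spliced isoforms (8%) had it at the 3′ end. Single-exon models can carry either strand, and the equal shares at the 2 ends are given here without a statement of which strand was transcribed.

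The polyadenylation signal AATAAA or ATTAAA, searched on the model's strand in the last 50 exonic bases, was present in 15.4% of the isoforms and in 80.3% of spliced isoforms with a gene. At the other end and on the opposite strand it was present in 14.6% and 0.666%. Single-exon isoforms with a gene were close to the position-named isoforms, with 18.7% at their own 3′ end and 19.9% at the other. The isoforms of 2 exons resembled spliced isoforms with a gene, with 76% and 2%. The productive isoforms had 41.2% and 5.15%. Isoforms over exons on the same strand had the signal at their own 3′ end in 33.1% and at the other end in 10.7%, and isoforms opposite to exons had the reverse, 6.16% and 32.5%, so that the signal lay more often at the end that is 3′ for the annotated gene. A match is a description of letters and not a mapped cleavage site.

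**Figure D2:**
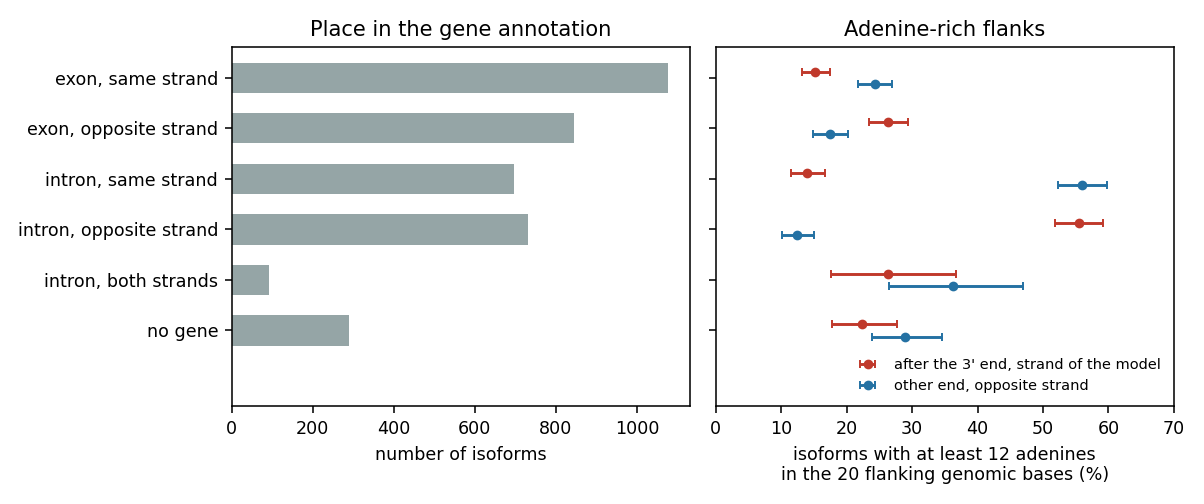
Left, the number of isoforms at position-named loci by their place in GENCODE v44. Right, the share of each class with at least 12 A in the 20 genomic bases beyond the model's 3′ end (red) or beyond the other end on the opposite strand (blue), with 95% exact intervals. Introns on the same strand (13.9% and 56.0%) and on the opposite strand (55.5% and 12.4%) mirror each other.

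In introns the adenine-rich flank followed the direction of the gene and not the strand of the model. Isoforms in introns of a gene on their own strand had it at the 3′ end in 13.9% and at the other end in 56.0%, and isoforms in introns of a gene on the opposite strand in 55.5% and 12.4%. Read along the gene, both are a run of T before the 5′ end: at least 12 T in the 20 bases before were found for 796 of 1427 (55.8%, 53.2 to 58.4), while at least 12 A in the 20 bases after the 3′ end were found for 188 (13.2%, 11.5 to 15.04). The median was 13 T of 20 before and 5 A of 20 after. Thymine made up 57.1% of the 20 bases before for models on the gene's strand and 57.2% for models on the other strand, and 32.0% and 33.3% of the 20 bases inside.

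**Figure D3:**
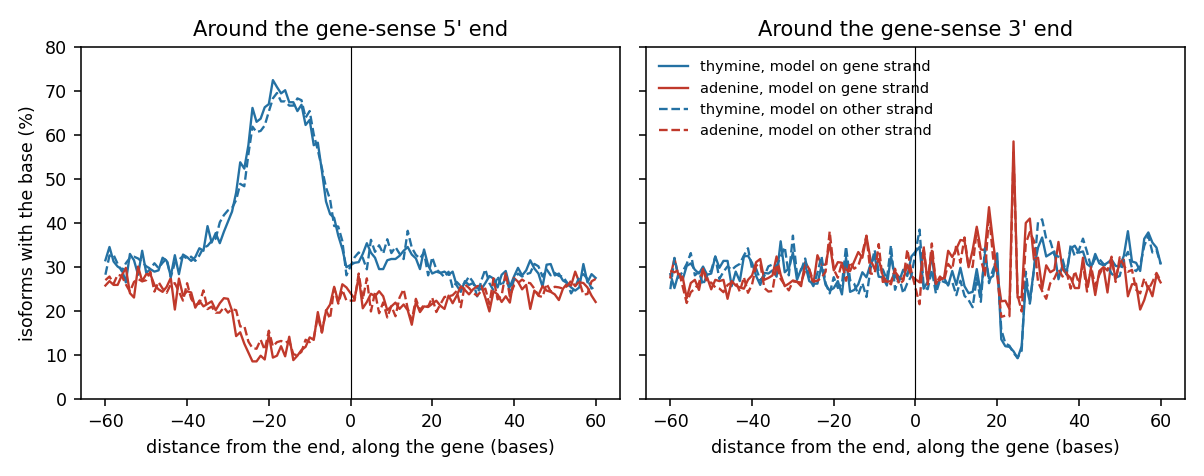
Share of intronic isoforms with T (blue) or A (red) by distance in bases from the 5′ end (left) and the 3′ end (right), both in the direction of the gene, for 696 models on the gene's strand (solid) and 731 on the other strand (dashed). Thymine forms a broad hump before the 5′ end, adenine a narrow spike after the 3′ end at base 24, and solid and dashed lines run together.

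A short motif stood at a fixed distance from the opposite end of the same isoforms. Beyond the 3′ end in the direction of the gene, the commonest bases at positions 21 to 26 spelled CCCAGC: C in 56.2%, 60.3% and 60.5% of the 1427 isoforms, then A in 57.3%, G in 49.7% and C in 51.6%. At position 20 the most frequent base was T with 32.3%, and at position 27 A with 37.7%. The exact 6 bases began at position 21 in 476 isoforms (33.4%, 30.9 to 35.9) and lay anywhere within positions 15 to 34 in 702 (49.2%, 46.6 to 51.8). The reverse complement GCTGGG lay in that window in 6 (0.420%). Beyond the 5′ end, read outward, CCCAGC lay in the same window in 87 (6.10%). As with the run of T, the strand of the model made little difference, with 48.1% for models on the gene's strand and 50.2% for models on the other. Both features together, the run of T before and CCCAGC after, were present in 443 isoforms (31.0%, 28.6 to 33.5), and the mirror arrangement, a run of A after and CCCAGC beyond the 5′ end, in 31 (2.17%). The printed FNIP1, NIFK-AS1 and RREB1 flanks have both.

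The motif was not particular to introns. Over all 3729 isoforms CCCAGC lay 15 to 34 bases beyond the 3′ end in 778 (20.9%) and beyond the other end, read outward on the opposite strand, in 847 (22.7%), and at either end in 1583 (42.5%, 40.9 to 44.1). It lay at either end in 32.9% of isoforms over exons on the same strand, 36.8% of those opposite to exons, 53.6% and 53.9% of those in introns and 34.1% of those outside genes. Among spliced isoforms with a gene it lay at either end in 3.18% and among single-exon isoforms with a gene in 3.80%. The first 20 bases of 35116 RefSeq promoter sequences (GRCh38.p14) held it in 1.47%. GCTGGG, its reverse complement, was present in 1.61% and 1.29% of the isoforms at the respective ends. An adenine-rich flank at an end and the motif at the other stood together in 832 isoforms (22.3%, 20.98 to 23.7), against 0.415% of spliced isoforms with a gene, and 2607 (69.9%) had at least 1 of the features at an end, against 7.16%. The window was chosen after the base profile had been seen. The primers of the library kit were not compared with these bases, so it was not tested whether the arrangement belongs to the RNAs or to the preparation of the cDNA libraries.

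**Figure D4:**
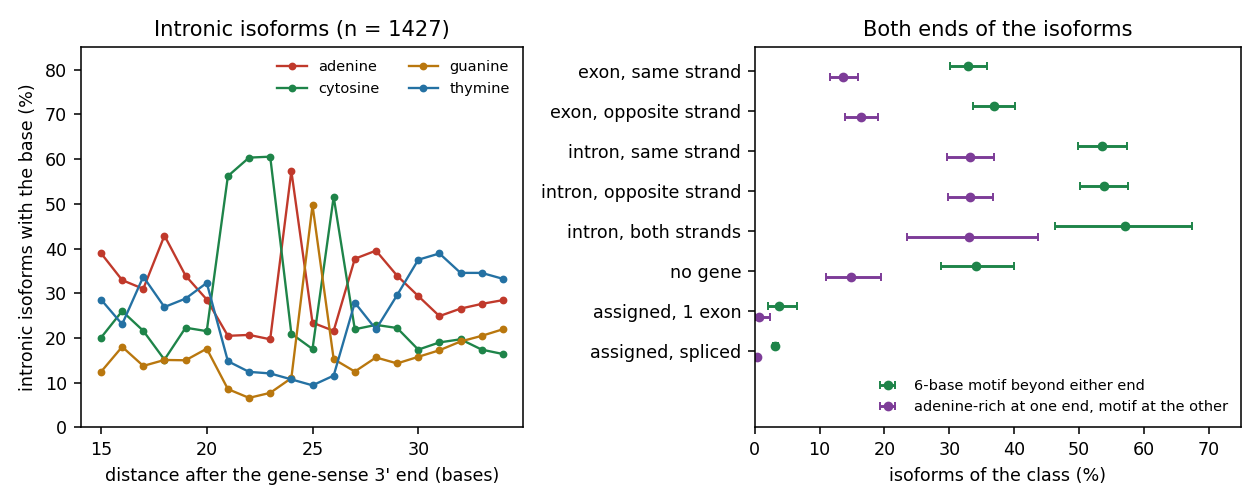
Left, share of each base at 15 to 34 bases after the 3′ end, in the direction of the gene, of 1427 intronic isoforms, with C reaching 60.5% at base 23 and A 57.3% at base 24. Right, share of isoforms per class with CCCAGC 15 to 34 bases beyond either end (green) or with an adenine-rich flank at an end and the motif at the other (purple), with 95% exact intervals; classes with an assigned gene are the bottom pair, at 3.80% and 3.18% for the motif.

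The longest isoform of all, chr16:24049078-24061902, spanned 12825 nt in an intron of PRKCB, the gene of protein kinase C beta, on the opposite strand, with a level of 9.95. It had 20 A of 20 beyond its 3′ end and 18 of 20 beyond the other. The other long isoforms were 12356 nt over exons of BCL2L1-AS1 and ABALON and opposite to BCL2L1, an apoptosis inhibitor, 11333 nt in an intron of the splicing factor gene MBNL1, 11229 nt opposite to GDAP2, and 10343 nt in introns of genes on both strands, with PLCL1 the nearest. Their levels were 4.32 to 5.09. None of the 5 had a second exon.

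The highest isoform was SNAR-A2, 91 nt long, with a level of 12954 and a mapping quality of 1. SNAR-E (933, mapping quality 3) and SNAR-C3 (843, mapping quality 13) were also among the 10 highest, while SNAR-G1 had 88.4 and SNAR-D 12.03. These loci are RefSeq genes of 119 to 128 bases and are not genes of the GENCODE v44 annotation used here, and 4 of the 5 lay outside any gene. Relative to the SNAR-A2 isoform, 82 of 91 aligned bases were identical in SNAR-C3 (90.1%), 63 of 70 in SNAR-E and in SNAR-D (90%) and 58 of 71 in SNAR-G1 (81.7%). SNAR-E, SNAR-G1 and SNAR-D end in 15, 14 and 9 genomic A, while the SNAR-A2 model does not end in A. The FLAIR models of SNAR-E, SNAR-C3 and SNAR-G1 were placed on the strand opposite to the one printed. With such similar copies and low mapping qualities, the levels of SNAR-A2, SNAR-C3 and SNAR-E may include reads of one another or of other loci. How reads were shared was not tested.

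A further 23 of the 47 isoforms of up to 150 nt matched BCYRN1 at 92.4 to 100% identity. They lay on 14 chromosomes, measured 98 to 148 nt, had a median level of 61.2 and a maximum of 401, and 17 of them had a mapping quality under 60. The likeness was on the model's strand in 16 and on the opposite strand in 7. No further isoform of up to 300 nt matched. The 3 with the highest levels lay on chromosomes 4, 13 and 5, with levels of 401, 234 and 176.

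BCYRN1 itself, named here after its values were seen, was counted as an annotated gene. Its CPM was 679, 677 and 709 in the WC libraries and 1547, 4200 and 4721 in the EV libraries. The groups did not overlap, and the EV library of replicate 1 was well below the other two. The gene was higher in EVs by 2.34 on the log2 scale (SE 0.47, adjusted p = 0.0150, edgeR quasi-likelihood test with Benjamini-Hochberg adjustment over 8716 genes). It was 2.66 without EV replicate 1, and the call was lost without WC replicate 1 (2.26, adjusted p = 0.052) and without WC replicate 3 (2.28, adjusted p = 0.051).

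Isoforms like ribosomal protein messages and other abundant messages followed in level. The second highest isoform, chr6:73372898-73373293 (level 4780), lay opposite to RPL39P3, a processed pseudogene, and matched the message of RPL39, a protein of the large ribosomal subunit, at 99.5% identity on the opposite strand. The isoform chr12:3211593-3212247 (1294) covered RPS27P3, a pseudogene of a small-subunit protein gene, on its own strand. The isoform chr2:174719821-174720853 (614) lay opposite to H3P6 and matched H3-3A, the gene of the replacement histone H3.3, at 99.9% on the opposite strand. The last 50 bases of the RPS27P3 isoform, and the 50 bases at the other end of the H3P6 isoform read on the strand of the pseudogene, are shown because both hold a polyadenylation signal, in capitals, before an adenine run in the genome, a feature that processed pseudogenes commonly have.
RPS27P3 isoform (chr12:3211593-3211642, - strand): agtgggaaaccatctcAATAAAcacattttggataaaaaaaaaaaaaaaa
H3P6 isoform, other end (chr2:174720804-174720853, + strand): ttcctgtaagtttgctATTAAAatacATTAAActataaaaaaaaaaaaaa

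Copies of mitochondrial DNA gave another group. Off the mitochondrial genome 11 isoforms matched it at 96.3 to 99.5% identity, on chromosomes 1, 5 and 17, and they held 5.44% of the summed level. The highest were chr5:134926660-134927319 (1368), opposite to MTND4P12, and chr1:633189-633463 (1361), opposite to MTCO2P12, copies of the genes of a complex I and a complex IV subunit, each with a mapping quality of 1. On the mitochondrial genome itself lay 5 isoforms. The highest of them, chrM:1-386 with a level of 2118, lay in the control region, and 4 overlapped MT-RNR1, the gene of the small ribosomal RNA of mitochondria, 3 of these on its strand. Of the 10 highest isoforms the remaining one, chr21:8257981-8258197 (742, mapping quality 1), had no gene and lay 1047 bp from an annotated 5.8S ribosomal RNA gene.

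The splice sites of the spliced isoforms were all annotated sites of known genes. Per the paper, FLAIR's correct module was run with GENCODE v41, so annotated sites and motifs are not an independent finding. How far that step set the sites was not tested. In 49 of 50 (98%) the intron began with GT and ended with AG, and 1 had GC-AG, while 99.0% of 68060 junctions of isoforms with a gene were GT-AG. Both sites of every intron were annotated sites, and 1 of the 50 introns was an annotated pair, in MALAT1. For the others, the nearest annotated intron was shifted by a median of 1134 nt over both ends, and in 5 by 10 nt or less. These 5 were in MALAT1 (6 nt) and in the IFITM genes, which encode interferon-induced membrane proteins that hinder viral entry: IFITM1 with 2 isoforms (6 nt each), IFITM2 (4 nt) and IFITM3 (4 nt). The IFITM3 isoform joined chr11:319991-320560, an intron of 570 nt, where the annotation pairs the same sites with others 5 nt or 4 nt away, in introns of 575 and 574 nt. The IFITM2 isoform had an intron of 570 nt as well. Their splice sites are shown because the unannotated pairs rest on them. Whether reads were assigned to the right one of sites a few bases apart was not tested. Shown are 10 bases on each side of the exon edge, with GT and AG in capitals.
IFITM3, 5′ splice site (chr11:320551-320570, - strand): gtgaaggtgcGTatggcccc
IFITM3, 3′ splice site (chr11:319981-320000, - strand): tctcccccAGtctagggaca
IFITM2, 5′ splice site (chr11:308433-308452, + strand): gtgaaggtgcGTatggccct
IFITM2, 3′ splice site (chr11:309003-309022, + strand): tctcccccAGtctagggaca
The IFITM3 and IFITM2 isoforms had levels of 198 and 160, against a median of 11.4 over the 50. The longest spliced isoforms were those of EEF1E1 (5064 nt, level 9.75), CRKL (4849 nt, 53.2), TRIM59 (3826 nt, 6.4), C22orf39 (3533 nt, 6.52) and RNF32-DT (3329 nt, 2.76). Introns ranged from 156 to 76497 nt.

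Since no isoform had a value per library, WC and EV were compared for the annotated genes at the same places, from the gene counts. CPM are relative within a library, so the amount of an RNA per cell or per vesicle is not known. Reads of a gene and of its partner on the other strand cannot be told apart where the counting setting for strand is not given. Over all 8716 genes tested, 44.2% were called at an adjusted p under 0.05, 22.8% higher and 21.4% lower in EVs (edgeR quasi-likelihood test). Genes around or opposite to the isoforms were called lower more often than higher. The isoform models were pooled over all libraries, and WC libraries had more counts than EV libraries. Whether this selected genes that are high in WC for the lists was not tested. Of 1783 genes on the opposite strand of an isoform 1237 were tested, and 189 (15.3%) were higher and 432 (34.9%) lower in EVs. Of 1733 genes on the same strand 1160 were tested, and 165 (14.2%) were higher and 400 (34.5%) lower. The median log2 fold change was -0.42 in both lists and -0.13 over all genes. The lists shared 405 tested genes, 32.7% of the first and 34.9% of the second.

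Of 828 tested genes that hold intronic isoforms, 76 (9.18%) were higher and 270 (32.6%) lower in EVs, with a median of -0.45. The number of higher calls depended on the fit, with 44 of 680 without WC replicate 2, 45 of 961 with DESeq2, 39 of 1065 without an expression filter and 20 of 828 with total-count scaling. Over all genes the higher share in these fits was 22.3%, 13.3%, 6.197% and 12.2%. Genes with exons on the isoform's strand had 135 higher and 268 lower of 733, and genes with exons on the opposite strand 147 higher and 296 lower of 779. The 119 tested genes ending within 5 kb upstream of an isoform on the same strand were near the background, with 33 higher (27.7%), 29 lower (24.4%) and a median of -0.10. The lists also differed from all genes in size and level: the median gene span was 89.5 kb for genes with intronic isoforms, 57.0 kb and 52.9 kb for the opposite and same strand lists and 26.8 kb over all tested genes, and the median mean CPM in WC was 21.9, 26.6, 25.7 and 18.0. The part of gene span and level in these counts was not tested. With scaling to total counts alone, the median of all genes moved to -0.78, and 12.2% of all genes were higher and 51.6% lower, so that a surplus of lower calls was then the background. In that setting 6.22% of the opposite strand list were higher and 67.8% lower, and 5.52% and 65.9% of the same strand list. Without an expression filter 7.35% and 6.64% of these lists were higher, no less than the 6.197% of all 29258 genes, so the lower share of higher calls was not kept in that setting. The lower calls were then 32.0% and 31.3%, against 8.59% of all genes.

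Pseudogenes overlapped by the isoforms were more often higher than lower in EVs. They were not compared with other pseudogenes. The paper counts more pseudogenes among its EV-enriched than among its cell-enriched RNAs, so the rise cannot be tied to the isoforms. Of 52 nuclear pseudogenes tested, among them pseudogenes of RPL and RPS genes, which encode ribosomal proteins, 28 (53.8%) were higher in EVs and 10 were lower, with a median of 0.84. With total-count scaling 20 were higher and 18 lower (median 0.19), against 12.2% and 51.6% of all genes (median -0.78). Without an expression filter 25 of 93 were higher and 15 lower (median -0.31), against 6.197% and 8.59% of all genes (median -1.27). Without WC replicate 1 the lower calls were 6 of 48, against 24.4% of all genes. RPL39P3 had a CPM of 2561, 2500 and 2319 in WC and 5682, 6069 and 6319 in EVs. All EV libraries were above all WC libraries, and the gene rose by 1.29 (SE 0.12, adjusted p = 2.1e-09). RPS27P3 went from 3198 ± 180 to 9089 ± 1071 CPM (SD, n = 3), a rise of 1.51 (adjusted p = 2.1e-10, edgeR). H3P6 rose from 19.9 ± 4.69 to 114 ± 21.5 (2.49, adjusted p = 1.9e-09, edgeR), and ENSG00000290018, an lncRNA gene at the same isoform, from 48.0 ± 4.98 to 164 ± 16.4 (1.77). RPL3P4 rose from 63.5 ± 7.02 to 674 ± 67.7 CPM (3.405, adjusted p = 2.4e-14, edgeR), and ENSG00000283041, a processed pseudogene, from 32.1 ± 5.52 to 300.4 ± 7.76 (3.22). These genes have near-identical parents, so their counts may hold reads of the parent.

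Counts of nuclear copies of mitochondrial genes fell. Of 8 tested, none was higher and 7 were lower, with a median of -2.20. Isoforms at such copies closely matched the mitochondrial genome, so these counts may hold reads of mitochondrial transcripts, which was not tested. MTCO2P12, MTATP6P1 and MTCO3P12 lie side by side on chromosome 1, so the genes are not all separate observations. MTND4P12 had a CPM of 295, 180 and 465 in WC and 15.1, 20.8 and 18.3 in EVs, a difference of -4.15 (SE 0.42, adjusted p = 9.7e-06, edgeR). The WC libraries spread widely and were all above the EV libraries. MTND2P28, a copy of a complex I subunit gene, had the lowest p of all genes that overlap an isoform and fell by 3.82, from 1462 ± 40.4 to 105 ± 17.6 CPM (adjusted p = 4.0e-15, edgeR). MTATP6P1, a copy of an ATP synthase subunit gene, fell by 3.32 and MTCO3P12 fell by 2.48. MTCO2P12 was at 111 ± 9.68 in WC and 28.6 ± 5.20 in EVs. MT-RNR1, on the mitochondrial genome, fell from 475 ± 20.1 to 238 ± 45.2 CPM (-1.01, adjusted p = 1.8e-05, edgeR).

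**Figure D5:**
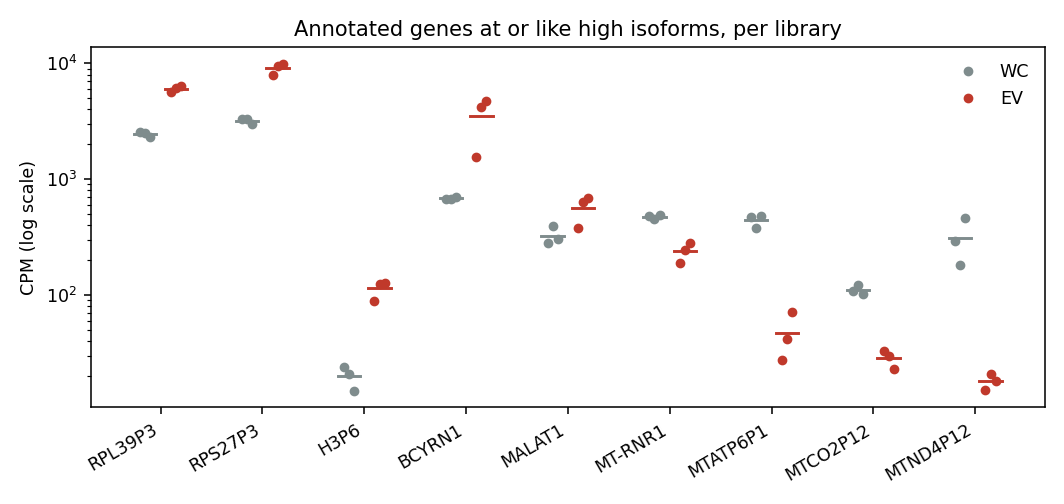
CPM on a log axis of 9 genes that overlap a high isoform or, for BCYRN1, resemble 23 short ones, in 3 WC (grey) and 3 EV (red) libraries, with points for libraries and bars for means. RPL39P3, RPS27P3, H3P6 and BCYRN1 are higher in every EV library, the mitochondrial genes lower in every EV library, and the MALAT1 values overlap.

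Of the 10 genes with the lowest adjusted p among those that overlap an isoform and had a mean of at least 10 CPM, 6 were protein-coding, and 4 of these rose and 2 fell in EVs. RPS3A, a small-subunit protein gene, rose from 28.1 ± 2.88 to 303 ± 10.2 CPM (3.43, adjusted p = 7.9e-14, edgeR). RPS15A, likewise of the small subunit, rose by 2.77 and NACA, which binds chains leaving the ribosome, by 2.97. No multi-mapping setting is given for the counts, so how reads of these genes and of similar copies elsewhere were divided is not known. HBG2, the gene of a fetal globin chain with a near-identical neighbour in HBG1, rose from 11.1 ± 3.62 to 217 ± 41.7 CPM (4.30, adjusted p = 1.0e-13, edgeR). HBG1 went from 84.2 ± 23.8 to 144 ± 38.1 CPM (0.75, adjusted p = 0.0089, edgeR), and its WC and EV libraries overlapped. How reads were divided between HBG1 and HBG2 is not known. SPDYE2 and SPDYE2B, near-identical members of the Speedy/RINGO family of cell cycle regulators on chromosome 7, fell by 4.98 and fell by 5.33, respectively, with 363, 567 and 521 counts of SPDYE2 in WC and 2, 4 and 1 in EV libraries.

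MALAT1, which had isoforms on both strands at 1 locus, had a CPM of 281, 391 and 307 in WC and 379, 638 and 683 in EVs. The EV library of replicate 1 lay below the highest WC library, and the difference of 0.78 (SE 0.19, adjusted p = 0.0018, edgeR) became 0.11 (adjusted p = 0.60) with total-count scaling. TALAM1, the antisense partner of MALAT1, had 4, 6 and 1 counts in WC and none in EV libraries and was not tested. CRKL, an adaptor protein and substrate of BCR-ABL, had a CPM of 106, 102 and 107 in WC and 87.8, 231 and 221 in EVs, so the groups overlapped (0.74, adjusted p = 0.030, edgeR). This call was lost without either of EV replicates 2 and 3 (adjusted p = 0.15 and 0.13). C22orf39 had a difference of 0.94 (adjusted p = 0.013), lost without EV replicate 1 (0.17). EEF1E1, a factor of the aminoacyl-tRNA synthetase complex, rose from 11.7 ± 2.73 to 35.7 ± 10.7 CPM (1.56, adjusted p = 0.00011, edgeR). BCL2L1 (-0.40, adjusted p = 0.36), GDAP2 (-0.87, 0.063), TRIM59 (-0.68, 0.37) and RNF32-DT (-0.05, 0.95) did not pass the test (edgeR).

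Histone genes overlapped by isoforms, most of them in the cluster of chromosome 6, gave 7 higher and 3 lower of 17 tested, with a median of 0.34, but 0 higher and 6 lower with total-count scaling and 0 higher without an expression filter, so no direction is given for them. Histone messages of the replication-dependent kind normally lack a poly(A) tail.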

How the data were processed

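Polyadenylated RNA of 3 WC and 3 EV libraries was analysed from the authors' processed files, after GEO's labels. Per the paper's methods the authors aligned the reads to hg38 (GRCh38) using minimap2, assembled isoforms with FLAIR and counted genes of GENCODE v41, with no strand or multi-mapping setting given for featureCounts. The deposited counts are the authors' raw read counts per gene and library. The deposited isoform signal (baseMean) is the authors' mean over libraries of counts divided by DESeq2 size factors. The deposited score of the isoform models is the authors' mapping quality, at most 60. The isoform table also holds the authors' fold changes and p-values, which were not used.

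Of 68247 count lines 68201 genes remained, since 46 IDs stood on 2 lines (42 identical, 4 differing by at most 4 counts) and the first was kept. The gene test was that of edgeR 4.0.16 run in R 4.3.3 (TMM factors 0.765 to 1.31, expression filter, robust quasi-likelihood fit, Benjamini-Hochberg over 8716 genes), and CPM use TMM-scaled library sizes over the genes kept. Positions were compared with GENCODE v44 and RefSeq by bedtools 2.31.1 and pysam 0.24.0, and likeness was set by blastn 2.17.0 at 90% identity over 80% of an isoform, for isoforms of up to 300 nt and named ones against GENCODE v44 transcripts, and for all isoforms against the mitochondrial genome. The edgeR step was tested on simulated data. Intervals are exact Clopper-Pearson at 95% and cover counting error only, as PCR reads without molecular identifiers are not independent molecules.

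Named isoforms were the 5 with most exons, the 5 longest, the 3 shortest, the 10 highest and those of the 3 loci with most isoforms. Named genes overlap these or are the 10 with the lowest adjusted p and a mean of at least 10 CPM. The members and lists were chosen with earlier results of these data known. The lists of intron hosts, of genes by exon overlap, of pseudogenes and of histone genes were added after seeing the data. WC and EV libraries of a number came from the same replicate and flow cell according to the paper; correlations of their deviations from the group means were 0.0622, 0.0237 and 0.00445. Alternatives were DESeq2 1.42.0, RLE and total-count scaling, other filters, a replicate block, other overlaps and distances, and leaving out each library. The 3 replicates of each group are described as biological triplicates for the EV purifications. Some sequences and a gene are not reported here.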

Additional observations from a re-analysis of the deposited data

How the results depend on the processing

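With total-count scaling the genes on the opposite strand had 77 higher and 839 lower calls, those on the same strand 64 and 764, and those ending within 5 kb upstream 19 and 69, while 1066 (12.2%) of all genes were higher and 4494 (51.6%) lower. Without an expression filter 118 of 1606 genes on the opposite strand (7.35%) and 102 of 1535 on the same strand (6.64%) were higher, against 6.197% of all genes. For upstream genes a distance of 1 kb left 15 calls (8 higher, 7 lower) and 10 kb gave 44 lower. With the replicate block the opposite strand list had 597 calls (184 higher, 413 lower), the same strand list 535 (157, 378) and the upstream list 58 (32, 26), and 3583 of all genes were called, so the block moved no list count by over 1.5 times. Leaving out each library gave 495 to 581 calls for the opposite strand (132 to 176 higher, 363 to 425 lower), 450 to 527 for the same strand (118 to 161, 332 to 390) and 46 to 60 for the upstream genes (22 to 30, 24 to 34). DESeq2 called 3357 of 13942 genes over the whole table, 1858 higher and 1499 lower. For genes around intronic isoforms, the higher calls fell from 76 to 45 with DESeq2, 39 without a filter, 44 without WC replicate 2 and 20 under total-count scaling. For single named genes 297 values kept their direction and side of the threshold, 16 lost and 3 gained the call, and 2 reversed, both of RNF32-DT, at 0.12 without EV replicate 1 and 0.22 without EV replicate 2 (-0.59 to 0.22 over the libraries left out). CRKL lost its call in 8 and C22orf39 in 5 alternatives. AATAAA alone was found in 11.2% of isoforms, 14 A of 20 in 20.3%, and 12 A of 20 in 8% of those with 2 exons, and all 50 introns (100%) had a GT-AG, GC-AG or AT-AC motif. The causes of these shifts were not tested. The isoform table gives no library values, so structure could not be compared between libraries.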

Other observations

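Several windows of 1 Mb outside the histone cluster and MALAT1 also held many isoforms. Chromosome 3 at 45 to 46 Mb held 22 isoforms (median length 2961 nt) around CDCP1, the gene of a membrane glycoprotein, and chromosome 6 at 147 to 148 Mb held 22 (median 3868 nt) around STXBP5 and SAMD5. Chromosome 7 at 102 to 103 Mb held 22, in the region of SPDYE2B and POLR2J3. On chromosome 22 adjoining windows held 17 and 18 isoforms, around C22orf39 and CRKL. Chromosome 21 at 8 to 9 Mb, near ribosomal RNA genes, held 22 with a short median length of 577 nt. These are counts without a test, and copy number of the K562 genome was not analysed here.

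Among isoforms of up to 150 nt that matched neither snaR nor BCYRN1, 4 matched RPS10, a small-subunit protein gene, at 96.8 to 98.9% identity. One on chromosome X matched RPS23 and had a level of 299.6, and one on chromosome 2 matched EEF1B2, the gene of an elongation factor subunit, at 100% over 122 nt with a level of 587 and a mapping quality of 1. The arrangement of an adenine-rich flank at an end and CCCAGC at the other varied with length, from 13.4% of isoforms up to 300 nt to 24.5% at more than 1000 and up to 2000 nt and 18.8% over 5000 nt.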
